A study of Mus musculus with 3 samples.

Results

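The 10 genes described here, Vegfa, Adm, Ankrd37, P4ha1, P4ha2, Egln3, Bnip3, Ndrg1, Car9 and Pdk1, are genes that many cell types switch on when oxygen is low. They were followed across 3 cultures of C2C12, a mouse myoblast cell line, with whole-genome expression arrays. The genes were chosen by name as known hypoxia-response genes, with earlier results of these data known. All of their probes were used, which gave 15 of the 41174 probes and 10 of the 18350 genes that could be named. Each culture was read on 1 array, so no comparison between cultures has a replicate and none carries a p-value.

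The first culture, called neurogenic cellulates here, and the second, called BIO cellulates here, share a history. C2C12 myoblasts were fused into myotubes over 8 days in DMEM with 2% horse serum, with AraC, a drug that kills dividing cells, present at 10 µM between days 2 and 4. The myotubes were then broken up into smaller cells, the cellulates, by myoseverin, a compound that acts on microtubules. BIO, an inhibitor of the kinase GSK-3, was started 24 h later and kept on for 2 days. Neurogenic cellulates were in addition plated on laminin and exposed to reversine at 250 nM for 48 h, followed by N2-supplemented DMEM/F12 and all-trans retinoic acid at 1.5 µM for 7 days. The third culture was untreated C2C12 myoblasts. The labels contradict each other on dose. BIO is at 2.5 µM in the sample titles and treatment labels and at 10 µM in the series text and protocol. Myoseverin is at 20 µM for 48 h in one text and 30 µM in another. Neither untreated myotubes nor cellulates that never met BIO were analysed here, so the steps between myoblasts and BIO cellulates cannot be told apart. The same holds for reversine, retinoic acid, medium, laminin and time between BIO and neurogenic cellulates. The number of dishes behind each array is not given in the sources used here.

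The genes share a regulator, the hypoxia-inducible factor HIF, a pair of an alpha subunit (Hif1a, Epas1 or Hif3a) and Arnt. In oxygen, prolyl hydroxylases of the Egln family mark the alpha subunit, and the Vhl ubiquitin ligase has it destroyed; when oxygen falls, the subunit lasts, enters the nucleus and binds a short DNA element with the core ACGTG or GCGTG. Its targets include secreted factors that bring in blood vessels, enzymes that turn metabolism from respiration to glycolysis, and enzymes of collagen making. Many of these genes also answer to growth factors, stress kinases and differentiation, and Vegfa is expressed by muscle fibres in normal oxygen.

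The promoters of the 4 genes whose levels differed by at least 2-fold between 2 cultures are shown first, because HIF binds such short elements near the starts of many of its targets. Each window runs from 250 bases before to 50 bases after the annotated start, from RefSeq on build GRCm38.p6, written along the gene's own strand. Capitals mark ACGTG or GCGTG on either strand, which read CACGT or CACGC when the element is on the other strand. The window of Vegfa lies at chr17:46032328-46032627 (minus strand), that of Adm at chr7:110627407-110627706 (plus), that of Ankrd37 at chr8:45999801-46000100 (minus) and that of P4ha2 at chr11:54100674-54100973 (plus).
Vegfa: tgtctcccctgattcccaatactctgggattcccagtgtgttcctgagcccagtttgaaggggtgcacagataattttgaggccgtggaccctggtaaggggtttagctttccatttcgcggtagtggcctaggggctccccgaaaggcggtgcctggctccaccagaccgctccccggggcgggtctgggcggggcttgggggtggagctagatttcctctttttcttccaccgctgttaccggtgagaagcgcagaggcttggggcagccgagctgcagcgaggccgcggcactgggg
Adm: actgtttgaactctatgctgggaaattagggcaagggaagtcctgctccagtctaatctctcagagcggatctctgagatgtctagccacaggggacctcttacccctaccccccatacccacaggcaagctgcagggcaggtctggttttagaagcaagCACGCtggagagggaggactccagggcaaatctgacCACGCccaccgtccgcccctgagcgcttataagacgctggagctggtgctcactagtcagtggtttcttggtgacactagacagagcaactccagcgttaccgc
Ankrd37: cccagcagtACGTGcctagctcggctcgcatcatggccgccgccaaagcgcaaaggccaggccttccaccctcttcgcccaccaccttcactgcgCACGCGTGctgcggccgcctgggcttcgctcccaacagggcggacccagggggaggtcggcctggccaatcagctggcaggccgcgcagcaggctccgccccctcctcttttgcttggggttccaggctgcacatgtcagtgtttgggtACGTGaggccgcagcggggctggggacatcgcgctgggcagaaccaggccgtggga
P4ha2: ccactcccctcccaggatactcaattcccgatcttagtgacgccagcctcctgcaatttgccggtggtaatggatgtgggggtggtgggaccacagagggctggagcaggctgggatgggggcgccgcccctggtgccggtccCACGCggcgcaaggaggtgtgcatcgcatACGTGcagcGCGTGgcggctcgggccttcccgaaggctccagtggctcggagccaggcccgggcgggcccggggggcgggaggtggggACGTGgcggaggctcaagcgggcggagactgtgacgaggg

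The Vegfa window held none of the letters searched, and bases further upstream of it were not searched, so an element there would be missed. A second annotated Vegfa start had 2 matches in its own window, with first bases 218 and 211 bases upstream of that start. This window, at chr17:46025114-46025413 (minus strand), lies downstream of the first start along the gene. Its matches are therefore not upstream of the first start. The Adm window held 2, both CACGC, at 90 and 54 bases upstream. Ankrd37 had 4 matches, of which CACGC at 155 and GCGTG at 152 bases upstream overlap, and the others were ACGTG at 241 and at 6 bases upstream. P4ha2 also had 4, among them ACGTG at 78 bases upstream, GCGTG at 69 bases upstream and ACGTG at 10 bases downstream of the start. Among the other genes, the first window of Bnip3 had 5 matches, P4ha1 3, Pdk1 2, Egln3 1 and Car9 1. Ndrg1 was not in the promoter table. In all, 8 of 9 first windows held a match, against 43.8% of all 32851 promoter windows. The elements are rich in CG, as are these promoters, with a median GC of 66%. Among windows of 60 to 70 percent GC, 67.9% held a match. A match is a string of letters and not a measured binding site.

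Of 43379 non-control spots per array, 45.7% in neurogenic cellulates, 46.9% in BIO cellulates and 50.7% in myoblasts were well above background by the scanner's own test, and none was saturated. A level below is the processed signal in multiples of the array's 75th percentile, which stood at 156, 115 and 181 intensity units on the 3 arrays in the same order. The 9 muscle markers were measured on all arrays, with summed levels of 1918 in neurogenic cellulates, 2206 in BIO cellulates and 90.2 in myoblasts. Of 8 markers of dividing cells, 7, 5 and 6 were measured, with summed levels of 27.3, 31.0 and 161. These shifts run alongside every comparison with myoblasts below, and their part in the results was not tested. Of the endothelial markers Pecam1, Cdh5, Tek and Tie1, 0 of 4 were measured on any array. Of 7 neuron markers, 4 were measured in neurogenic cellulates, 4 in BIO cellulates and 3 in myoblasts, with summed levels of 5.98, 6.12 and 10.8. Tubb3, Map2 and Rbfox3 were measured on all arrays, and Nefl and Syp on none. Nefm was measured in neurogenic cellulates alone (at least 2.30-fold over BIO cellulates). Dcx was measured in BIO cellulates alone (at least 1.71-fold over neurogenic cellulates and at least 3.82-fold over myoblasts). Of 4 glia markers, 3 were measured in either cellulate culture and 4 in myoblasts, with summed levels of 1.19, 1.38 and 1.46. The myoblast array reads dimmer genes as measured, down to a level of 0.0752, against 0.168 in neurogenic and 0.150 in BIO cellulates. Of 3 leukocyte markers with a probe, Csf1r was measured on all arrays and Ptprc and Adgre1 on none, with sums of 0.812, 1.12 and 0.839. Of 4 adipocyte markers, Pparg and Plin1 were measured on all arrays and Adipoq and Fabp4 on none, with sums of 1.08, 0.868 and 0.671. In such bulk RNA, fewer cells of a type and less RNA per cell cannot be told apart.

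Error was taken from the scatter of probes printed 10 times on each array. From it, a ratio of 2 single spots had a 95% interval of 1.38-fold where BIO cellulates are set against myoblasts. The interval was 1.30-fold between neurogenic and BIO cellulates and 1.34-fold between neurogenic cellulates and myoblasts. It covers printing and scanning within an array and leaves out culture, extraction and labelling. The scanner's own error model gave about 10.0% or more of the value for each member probe.

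Of the 10 genes, 8 were well above background on all 3 arrays and 2, Egln3 and Ndrg1, on none. The secreted factors Vegfa and Adm and the ankyrin-repeat gene Ankrd37 read highest in neurogenic cellulates, lower in BIO cellulates and lowest in myoblasts. In Ankrd37 the neurogenic and BIO cellulates were not clearly apart. The collagen hydroxylase gene P4ha2 ran in the opposite order. P4ha1, Bnip3, Car9 and Pdk1 stayed within 2-fold in every comparison.

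**Figure D1:**
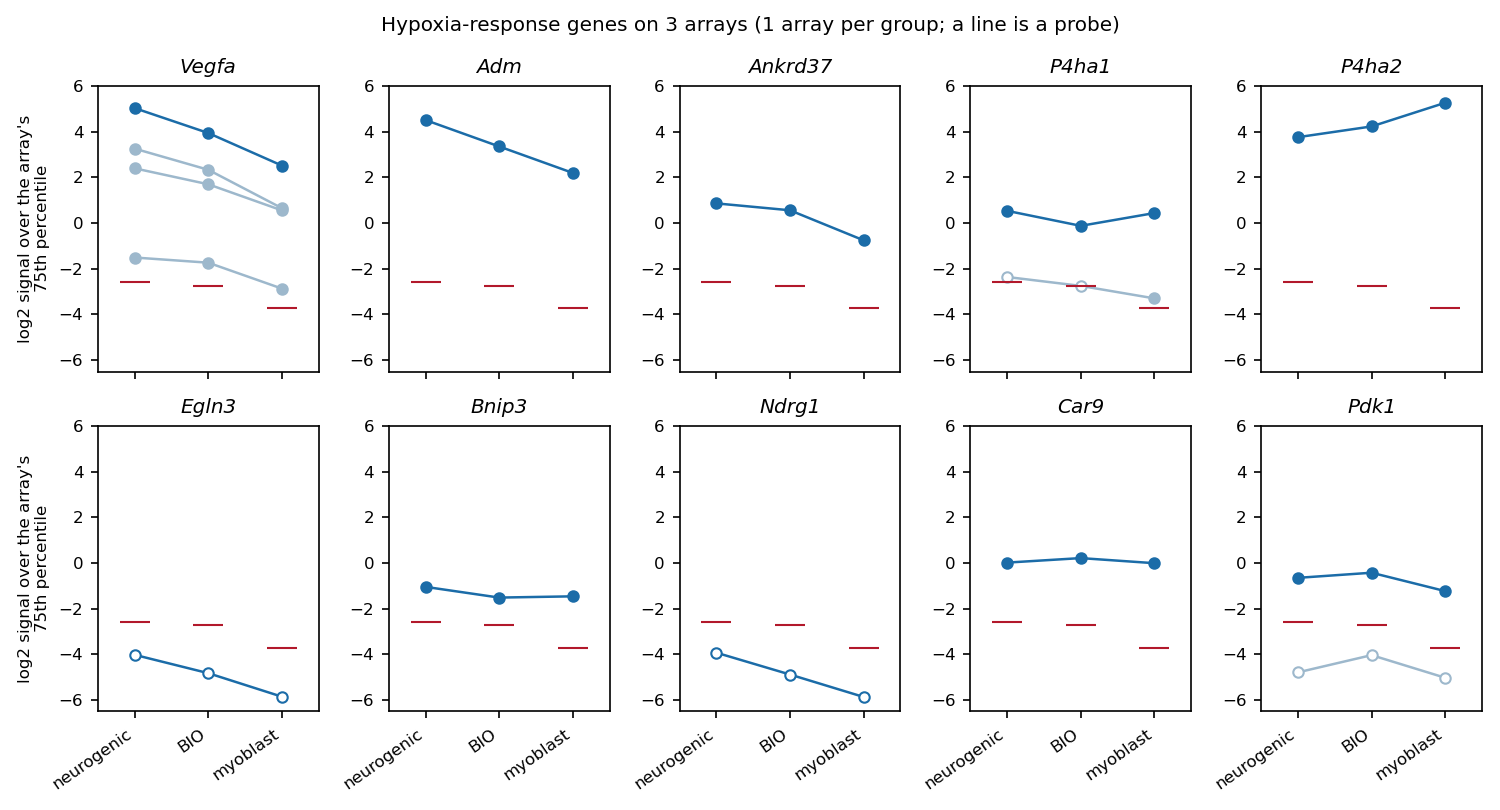
Levels of the 10 hypoxia-response genes, as log2 of the signal over the array's 75th percentile, in neurogenic cellulates, BIO cellulates and myoblasts (1 array each). Each line is a probe (dark, the brightest of the gene; pale, its other probes), open circles are spots not well above background, and red dashes give the lowest level that was well above background on that array. Vegfa, Adm and Ankrd37 slope down to the myoblasts, P4ha2 slopes up, and Egln3 and Ndrg1 lie under the dashes throughout.

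Vegfa encodes vascular endothelial growth factor A, the main signal that makes blood vessels sprout. Its brightest probe, A_52_P638895, read 32.7 in neurogenic cellulates, 15.4 in BIO cellulates and 5.72 in myoblasts. BIO cellulates were thus 2.68-fold above myoblasts (log2 ratio 1.42), neurogenic cellulates 2.13-fold above BIO cellulates (1.09), and neurogenic cellulates 5.71-fold above myoblasts (2.51). All 3 ratios lay outside the repeat-spot interval. The Vegfa ratio exceeded that of 96.6% of the 11182 genes measured on both arrays for BIO cellulates against myoblasts, 97.9% of 10875 for neurogenic against BIO cellulates and 98.6% of 10885 for neurogenic cellulates against myoblasts.

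Vegfa is the member with most probes, 4, and it offers a look at how well separate probes for 1 gene match. Probe A_51_P482552 was printed 10 times per array. Its spots ranged over 8.32 to 10.95 in neurogenic cellulates, with a mean of 9.59 ± 0.73 (SD, n = 10 spots). In BIO cellulates they ranged over 4.29 to 5.68, with a mean of 5.05 ± 0.39 (SD, n = 10 spots). In myoblasts they ranged over 1.41 to 1.80, with a mean of 1.57 ± 0.11 (SD, n = 9 spots, 1 being left out as an outlier by the scanner). The spots of the 3 arrays did not overlap. From this probe the log2 ratios were 1.68 for BIO cellulates against myoblasts, 0.93 for neurogenic against BIO cellulates and 2.61 for neurogenic cellulates against myoblasts.

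The remaining Vegfa probes gave the same order with smaller steps. Probe A_52_P249424 read 5.26 in neurogenic cellulates, 3.24 in BIO cellulates and 1.47 in myoblasts. Probe A_52_P229471 was dim, at 0.351, 0.300 and 0.137 in the same order. Over the 4 probes the log2 ratio of BIO cellulates to myoblasts ran between 1.13 and 1.68, past 2-fold at each probe. That of neurogenic to BIO cellulates ran between 0.23 and 1.09, and only the brightest probe was past 2-fold, so the size of the second step depends on the probe while its sign does not.

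**Figure D2:**
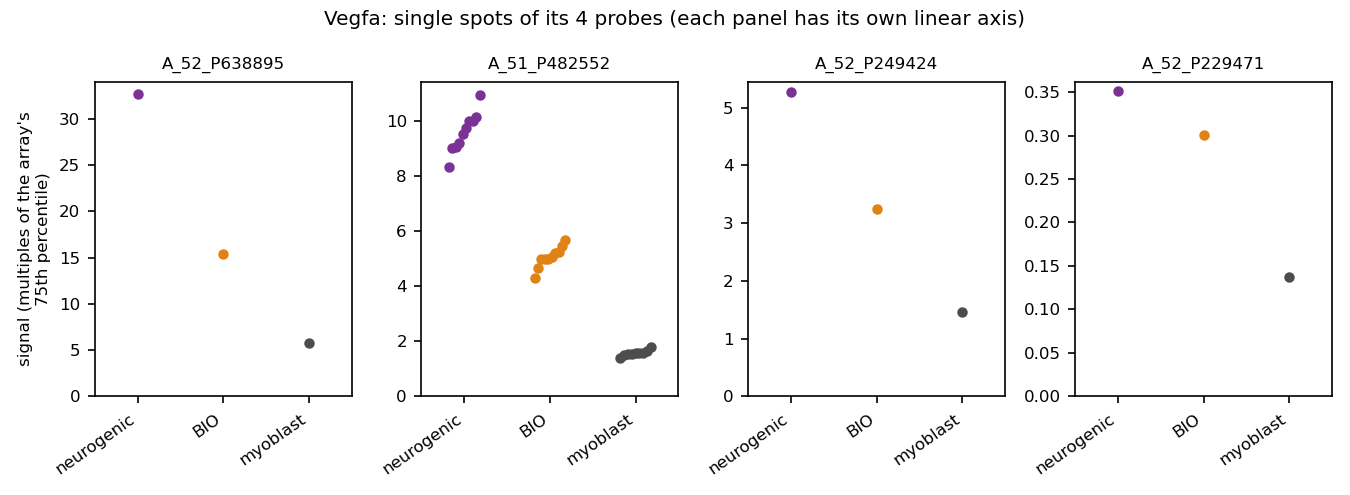
Every spot of the 4 Vegfa probes in neurogenic cellulates, BIO cellulates and myoblasts, in multiples of the array's 75th percentile on a linear axis that starts at 0 and differs between panels. A_51_P482552 has 10, 10 and 9 spots, drawn side by side, and the other probes 1 spot each. On each probe the neurogenic spots are highest and the myoblast spots lowest, and the repeat spots do not overlap between arrays.

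Adm encodes adrenomedullin, a peptide that widens blood vessels and stabilises their lining. Its single probe read 22.8 in neurogenic cellulates, 10.2 in BIO cellulates and 4.58 in myoblasts. The 2 steps were alike in size, 2.23-fold for BIO cellulates over myoblasts (log2 ratio 1.16) and 2.23-fold for neurogenic over BIO cellulates (1.16), and neurogenic cellulates stood 4.97-fold over myoblasts (2.31). Each ratio lay outside the repeat-spot interval.

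Ankrd37 encodes a small protein with ankyrin repeats. Its level was 1.82 in neurogenic cellulates, 1.47 in BIO cellulates and 0.593 in myoblasts. BIO cellulates were 2.48-fold above myoblasts (log2 ratio 1.31) and neurogenic cellulates 3.06-fold above myoblasts (1.61). Neurogenic cellulates stood 1.23-fold over BIO cellulates, inside the 1.30-fold interval of all repeat probes and at the 1.23-fold edge of that of bright probes (level 1 or over), so these cultures were not clearly apart in Ankrd37.

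P4ha1 and P4ha2 encode catalytic subunits of prolyl 4-hydroxylase, the enzyme that hydroxylates collagen so that its triple helix is stable. P4ha2 read 13.5 in neurogenic cellulates, 18.8 in BIO cellulates and 38.5 in myoblasts. It was 2.05-fold lower in BIO cellulates than in myoblasts (log2 ratio -1.04), 1.38-fold lower in neurogenic than in BIO cellulates (-0.47) and 2.84-fold lower in neurogenic cellulates than in myoblasts (-1.51). All 3 ratios lay outside the repeat-spot interval, and only 3.92% of genes had a lower ratio of neurogenic cellulates to myoblasts. P4ha1 did not follow it. Its brighter probe read 1.45 in neurogenic cellulates, 0.919 in BIO cellulates and 1.35 in myoblasts, so BIO cellulates were 1.47-fold below myoblasts and neurogenic cellulates 1.58-fold above BIO cellulates. Neurogenic cellulates and myoblasts differed by 1.07-fold in P4ha1, inside the interval. The second P4ha1 probe, at 0.195, 0.149 and 0.102 in neurogenic cellulates, BIO cellulates and myoblasts, was well above background in myoblasts alone and gives no fold.

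Pdk1, a kinase that shuts pyruvate out of the citric acid cycle by blocking pyruvate dehydrogenase, read 0.635 in neurogenic cellulates, 0.742 in BIO cellulates and 0.425 in myoblasts. It was 1.75-fold higher in BIO cellulates than in myoblasts (log2 ratio 0.80) and 1.50-fold higher in neurogenic cellulates than in myoblasts (0.58), both outside the interval and under 2-fold. Neurogenic and BIO cellulates were 1.17-fold apart, within spot scatter. The second Pdk1 probe was at background on every array.

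Bnip3, a mitochondrial protein that sends mitochondria to autophagy, read 0.483 in neurogenic cellulates, 0.349 in BIO cellulates and 0.362 in myoblasts. Its level in BIO cellulates was 1.04-fold below that in myoblasts, within the interval. Neurogenic cellulates exceeded BIO cellulates by 1.38-fold, outside the 1.30-fold interval of all repeat probes and inside the 1.39-fold interval of the dim ones (level under 1), the class to which Bnip3 belongs. Car9, a carbonic anhydrase on the cell surface that sets pH outside the cell, read 1.01 in neurogenic cellulates, 1.16 in BIO cellulates and 0.990 in myoblasts, and its ratios, at most 1.17-fold, lay within the interval in all 3 comparisons.

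Egln3, the prolyl hydroxylase most strongly induced by HIF, read 0.0614 in neurogenic cellulates, 0.0352 in BIO cellulates and 0.0172 in myoblasts. Ndrg1, a stress-induced cytoplasmic protein, read 0.0655, 0.0338 and 0.0171 in the same order. None of these spots was well above background, where the lowest such level was 0.168 in neurogenic cellulates, 0.150 in BIO cellulates and 0.0752 in myoblasts. The scanner's own error on them was 58.6% of the value or more, and no fold is given. Each gene has 1 probe here, so a failing probe and a silent gene cannot be told apart.

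**Figure D3:**
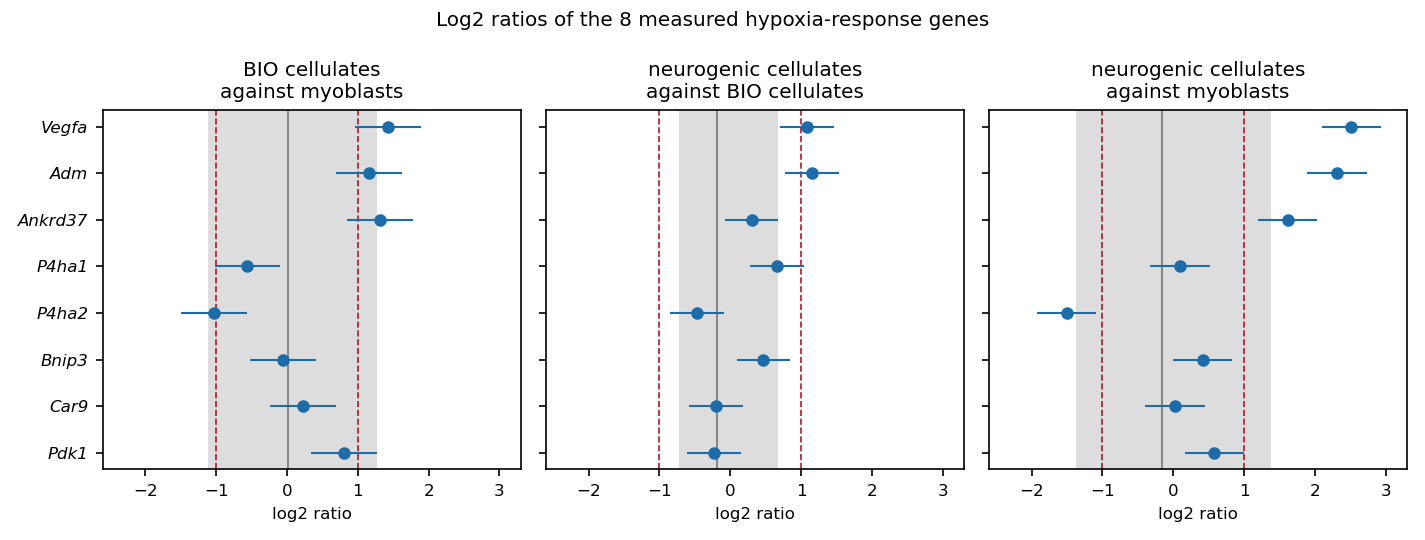
Log2 ratios of the 8 measured hypoxia-response genes in BIO cellulates against myoblasts, neurogenic against BIO cellulates, and neurogenic cellulates against myoblasts. Bars are the 95% interval from repeat spots, the grey band holds the 5th to 95th percentile of all genes measured on both arrays with their median as a grey line, and dashed lines mark 2-fold. Vegfa lies right of the band in each panel, Adm right of it in both panels with neurogenic cellulates, Ankrd37 right of it in both panels against myoblasts, and P4ha2 left of it in the panel of neurogenic cellulates against myoblasts.

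Counted together, Vegfa, Adm and Ankrd37, 3 of the 8 measured genes, were at least 2-fold above myoblasts in BIO cellulates, where 11.2% of 12829 genes were (8.43% of the 11182 measured on both arrays). P4ha2 alone was at least 2-fold lower, where 6.01% of genes were (6.13% of those measured on both). The median log2 ratio of the 8 was 0.51, beside 0.00 over all genes. In neurogenic against BIO cellulates, 2 of 8 were at least 2-fold higher (Vegfa and Adm), where 4.17% of 12256 genes were (2.45% of those measured on both arrays), and 0 were lower, where 1.80% were (1.41%). The median was 0.39, beside -0.17 over all genes. Against myoblasts, 3 of 8 were at least 2-fold higher in neurogenic cellulates (Vegfa, Adm and Ankrd37), where 12.1% of 12857 genes were (9.35% of those measured on both arrays), and 1 was lower (P4ha2), where 10.0% were (11.0%). The median was 0.50, beside -0.06. These comparisons share arrays, and 8 genes picked by name, with earlier results of these data known, make these counts a description. The share of higher calls among all genes called turns on the scaling. For BIO cellulates against myoblasts it was 65.1%, but 9.07% with scaling to the array median, 29.1% with normexp background correction, 50.4% with quantile normalisation and 76.8% with the percentile taken over measured probes. In neurogenic against BIO cellulates it was 69.9%, but 83.5% with that percentile and 92.1% with spike-in scaling. In neurogenic cellulates against myoblasts it was 54.7%, but 11.5% with the array median, 31.4% with normexp, 75.6% with spike-in scaling and 78.9% with the measured probes.

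The calls against myoblasts lean on that scaling too. With the array median, which moves the median of all genes to -0.66 in BIO cellulates against myoblasts and to -0.79 in neurogenic cellulates against myoblasts, Vegfa, Adm and Ankrd37 had log2 ratios of 0.71, 0.44 and 0.60 in BIO cellulates against myoblasts and were no longer past 2-fold. Nor were Adm and Ankrd37 there with normexp correction, at 0.87 and 0.88, and P4ha2 fell short with quantile normalisation (-0.85) and with the percentile over measured probes (-0.87). In neurogenic cellulates against myoblasts, Ankrd37 was also short of 2-fold with the array median, at 0.88. In neurogenic against BIO cellulates, Vegfa was short of it with the median over probes, at 0.81, and P4ha1 passed it with spike-in scaling, at 1.02. Relative to the median of all genes under the same setting, the spread was narrower. Over the 9 alternatives Vegfa lay 1.13 to 1.59 above that median in BIO cellulates against myoblasts, 0.97 to 1.41 in neurogenic against BIO cellulates and 2.20 to 2.94 in neurogenic cellulates against myoblasts. Adm lay 0.87 to 1.30, 1.25 to 1.46 and 2.09 to 2.70 above it in the same order, and Ankrd37 0.88 to 1.35, 0.32 to 0.49 and 1.10 to 1.84. P4ha2 differed from it by -1.30 to -0.85, -0.37 to -0.19 and -1.71 to -1.10. None of these 4 genes changed direction in any of the 9 alternatives.

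**Figure D4:**
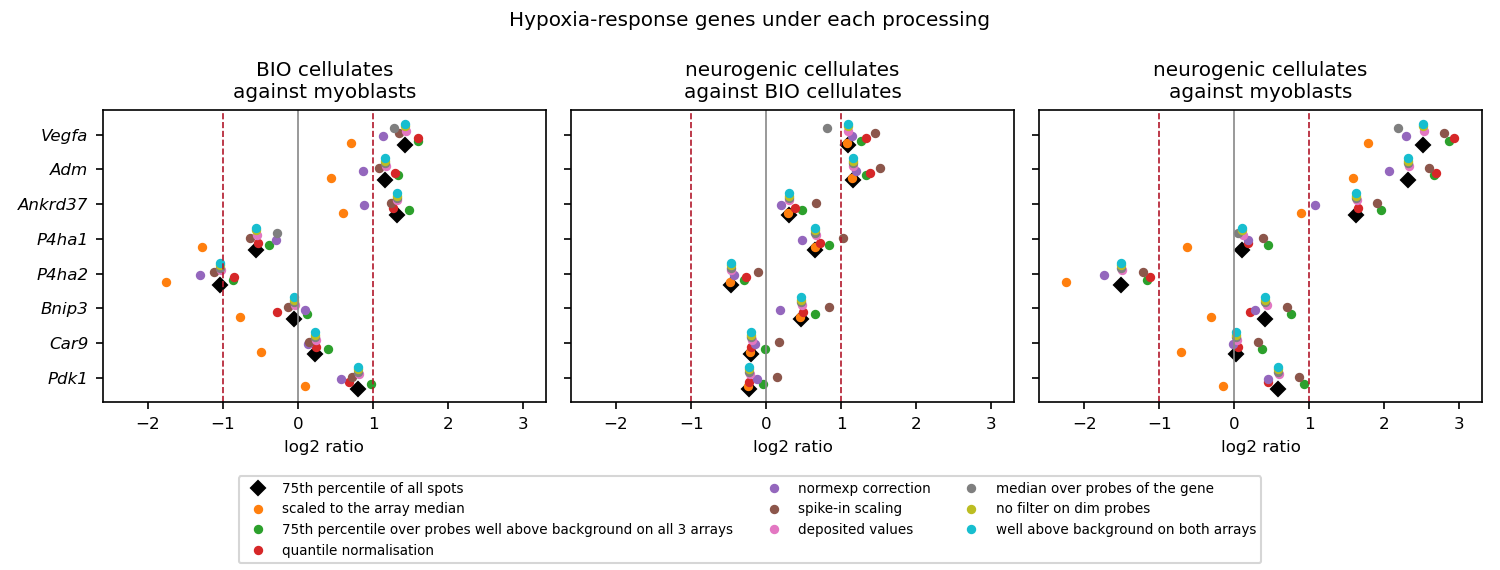
Log2 ratios of the 8 measured hypoxia-response genes (as in the plot of ratios with spot intervals) under the reported processing, black diamonds, and 9 alternatives, coloured dots. Dashed lines mark 2-fold. Scaling to the array median, orange, moves every gene left in both comparisons with myoblasts, and Vegfa, Adm and Ankrd37 stay right of 0 and P4ha2 left of 0 throughout.

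The order seen in Vegfa, Adm and Ankrd37, up in BIO cellulates over myoblasts and up again in neurogenic over BIO cellulates, was shared by 1500 (14.1%) of the 10663 genes measured on all 3 arrays. The steeper course of at least 2-fold in the first step and beyond spot scatter in the second was shared by 134 genes (1.26%), Vegfa and Adm among them. The reverse order, which P4ha2 had, was shared by 3677 genes (34.5%). The genes most like each were those at the smallest Euclidean distance over the 2 log2 ratios of the successive steps. Nearest to Vegfa were Trim34a, Chka and Igfbp5, at distances of 0.0098, 0.14 and 0.17. Nearest to Adm were Lonp1, H2-Q10 and Slirp, at 0.070, 0.071 and 0.13. Ankrd37 had Abcc8, Tmem229b and Rsl24d1 as neighbours, at 0.020, 0.044 and 0.066, and P4ha2 had Lrwd1 and Epb41l3 among its nearest, at 0.0093 and 0.036. Within a distance of 0.25 lay 8 genes for Vegfa, 16 for Adm, 62 for Ankrd37 and 199 for P4ha2. With only 3 arrays, likeness rests on 2 numbers per gene.

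The oxygen sensor itself was covered by a list of 12 genes. Of these genes for HIF subunits, Egln enzymes and HIF partners, none of the 8 measured in BIO cellulates against myoblasts was past 2-fold, with a median of 0.07. None of 8 was in neurogenic against BIO cellulates either, with a median of -0.08, while 1 of 9 was in neurogenic cellulates against myoblasts, with a median of 0.01. Such counts are near what the shares of all genes past 2-fold, given above, would leave among so few. Under scaling to the array median 3 of the 9 were at least 2-fold lower in neurogenic cellulates than in myoblasts. Of all genes, 38.9% were lower there under that scaling, so this count is near the share of all genes. Hif1a, the most widely used alpha subunit, read 3.72 in neurogenic cellulates, 3.49 in BIO cellulates and 3.47 in myoblasts, ratios within spot scatter. Hif1an, which hydroxylates the alpha subunit on asparagine and so blocks its coactivators, read 1.76 in neurogenic cellulates, 3.12 in BIO cellulates and 3.16 in myoblasts, 1.77-fold lower in neurogenic than in BIO cellulates and 1.63-fold and 1.34-fold lower on its other probes. The probes did not share a sign in neurogenic cellulates against myoblasts. Crebbp, one of those coactivators, read 0.469 in neurogenic cellulates, 0.447 in BIO cellulates and 0.276 in myoblasts, 1.62-fold higher in BIO cellulates than in myoblasts. On their brightest probes Hif3a, Arnt, Egln2, Cited2 and Ep300 stayed within 1.35-fold in all comparisons. A second Ep300 probe was 1.49-fold higher in BIO cellulates and 1.57-fold higher in neurogenic cellulates than in myoblasts, and a second Hif3a probe 1.39-fold and 1.50-fold higher. Epas1, the other main alpha subunit, was the call in neurogenic cellulates, at least 4.04-fold over myoblasts on a probe at 0.304 in neurogenic cellulates and at background in the others. Its second probe was above background in BIO cellulates alone (0.186), at least 2.27-fold over myoblasts. Since the Epas1 probes disagreed on detection in BIO cellulates, no ratio of the gene was taken there. Egln1 and Arnt2 were at background on all arrays, and Vhl had no named probe. HIF is set mostly through the stability of the alpha subunit protein, which arrays do not measure.

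Other HIF targets were mixed. Of 32, 26 were measured in each comparison. In BIO cellulates against myoblasts, 4 were at least 2-fold higher and 2 lower, with a median of 0.28. That is 15.4% higher and 7.69% lower, beside 11.2% and 6.01% of all genes. The higher ones were Hmox1, the haem-degrading enzyme, with 76.4 in BIO cellulates against 22.4 in myoblasts (3.42-fold), the hormone gene Epo on a dim probe (0.269 in BIO cellulates against 0.109 in myoblasts, 2.46-fold), the repressor Bhlhe40 (at least 2.38-fold) and Insig2, a regulator of sterol synthesis (2.09-fold). The lower ones were the collagen cross-linking enzyme Loxl2 (3.09-fold) and the ecto-nucleotidase Nt5e (2.73-fold). A second Loxl2 probe differed by 1.23-fold there, and ran against the first in neurogenic cellulates over myoblasts, 3.99-fold higher on the second probe and 1.71-fold lower on the first.

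Between neurogenic and BIO cellulates, 2 of the 26 other targets were higher in the neurogenic culture and 1 lower, with a median of -0.04. The mitochondrial gene Fam162a was at least 5.19-fold higher and Nt5e 3.36-fold higher, and the repressor Bhlhe41 at least 2.08-fold lower. Against myoblasts, 4 were higher in neurogenic cellulates and 1 lower, with a median of 0.18. They were Fam162a (at least 10.4-fold), Angptl4, an inhibitor of lipoprotein lipase (2.20-fold), Epo (2.18-fold) and Hmox1 (2.09-fold), with the secreted glycoprotein Stc2 2.09-fold lower. Between neurogenic and BIO cellulates, 7.69% of these targets were thus higher and 3.85% lower, beside 4.17% and 1.80% of all genes. Against myoblasts, 15.4% were higher and 3.85% lower in neurogenic cellulates, beside 12.1% and 10.0% of all genes.

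Most genes of glycolysis and glucose uptake, the metabolic arm of the hypoxia response, did not follow Vegfa and Adm between BIO and neurogenic cellulates. In BIO cellulates against myoblasts, 2 of 18 genes were at least 2-fold higher, the glucose transporter Slc2a1 (2.87-fold) and hexokinase Hk2 (2.15-fold), and 1 lower, the transporter Slc2a3 (2.70-fold), with a median of 0.46. In neurogenic against BIO cellulates, 0 of 17 were past 2-fold, where 4.17% of all genes were higher and 1.80% lower. The median was -0.57, beside -0.17 over all genes, with 14 of 17 ratios negative. That median stayed below 0 in all 9 alternatives, between -0.58 and -0.07. The median of all genes moved too, from -0.19 with the array median to 0.17 with spike-in scaling. Staying below 0 is thus not the same as staying below all genes, which was not tested for each alternative. Lactate dehydrogenase Ldha, chosen after its values were seen, had the lowest ratio there, with 338 in neurogenic cellulates against 650 in BIO cellulates (log2 ratio -0.95). Hk2 had the highest, with 1.72 in neurogenic cellulates against 0.983 in BIO cellulates (log2 ratio 0.81, 1.75-fold), so it rose in both steps. Neurogenic cellulates against myoblasts had 2 of 18 higher, Hk2 (3.76-fold) and Slc2a1 (2.23-fold), and 2 lower, Slc2a3 (4.00-fold) and enolase Eno1 (2.57-fold), with a median of -0.07. Of all genes, 11.2% were higher and 6.01% lower in BIO cellulates against myoblasts, beside 11.1% and 5.56% of this list. In neurogenic cellulates against myoblasts, 12.1% and 10.0% of all genes were, beside 11.1% of the list each way. The counts against myoblasts were thus near the shares of all genes.

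Of 16 genes for other ligands and receptors of vessel growth, 8 were measured in neurogenic cellulates, 9 in BIO cellulates and 10 in myoblasts. The receptor Kdr and the receptor partner Ramp2 were measured on no array, and the receptors Flt1 (0.225) and Calcrl (0.165) in myoblasts alone. The lowest level well above background was 0.0752 in myoblasts, against 0.168 in neurogenic and 0.150 in BIO cellulates. The myoblast array thus reads dimmer genes as measured, and these numbers of genes are not like for like. The co-receptors Nrp1 and Nrp2 and the receptor partner Ramp3 were measured on all arrays and stayed within 2-fold. In BIO cellulates 3 of 11 were at least 2-fold above myoblasts and 0 lower, with a median of 0.07. These were the ligand Vegfb, with 27.2 in BIO cellulates against 8.09 in myoblasts (3.36-fold, and 1.54-fold on a second probe), the ligand Vegfd (3.20-fold) and the receptor Flt4 (at least 3.36-fold). Neurogenic cellulates had 1 of 11 above BIO cellulates, the Tie2 ligand Angpt2 (at least 2.69-fold), and 1 lower, Vegfd (at least 2.57-fold), with a median of 0.05. Neurogenic cellulates had 3 of 12 higher than myoblasts and 0 lower, Angpt2 (at least 5.38-fold), Vegfb (3.44-fold, and 2.35-fold on the second probe) and Angpt1 (at least 2.30-fold), with a median of 0.00. Of all genes, 11.2%, 4.17% and 12.1% were at least 2-fold higher in these comparisons, in the order given. The shares lower were 6.01%, 1.80% and 10.0%.

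A further list held 17 relatives and partners of the 10 genes. P4ha3, another catalytic subunit of collagen prolyl 4-hydroxylase, ran the same way as P4ha2, with 0.208 in neurogenic cellulates, 0.723 in BIO cellulates and 1.91 in myoblasts. It was 2.64-fold lower in BIO cellulates than in myoblasts and 3.47-fold lower in neurogenic than in BIO cellulates, and 9.17-fold lower in neurogenic cellulates than in myoblasts. Pdk4, the kinase that blocks pyruvate dehydrogenase in fasting muscle, read 1.75 in neurogenic cellulates and was not well above background in BIO cellulates (0.124) or myoblasts (0.0631). Neurogenic cellulates were at least 11.6-fold above BIO cellulates and at least 23.2-fold above myoblasts in Pdk4. P4hb, the shared beta subunit of the collagen hydroxylase, had a similar course on its probe, 0.819 in neurogenic cellulates and at background in the others, at least 5.45-fold above BIO cellulates. Among genes with another, bright probe, 30 of 2360 probes (1.27%) that were dim on the other arrays also came up at least 4-fold on the neurogenic array. The part of such probes in the readings of P4hb, Pdk4 and Fam162a was not tested.

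By count, 2 of 10 relatives stood at least 2-fold above myoblasts in BIO cellulates, the carbonic anhydrases Car13 (at least 3.09-fold) and Car4 (at least 3.01-fold), and 1 lower, with a median of 0.01. In neurogenic against BIO cellulates 2 of 12 were higher and 2 lower, the muscle carbonic anhydrase Car3 being 2.76-fold lower, with a median of -0.10. In neurogenic cellulates against myoblasts 4 of 12 were higher, with Car13 at least 5.12-fold and Car4 at least 2.82-fold beside Pdk4 and P4hb, and 1 lower, with a median of -0.10. The shares of all genes at least 2-fold higher were 11.2%, 4.17% and 12.1% in these comparisons, in the order given. Those lower were 6.01%, 1.80% and 10.0%. Under scaling to the array median the medians of all 6 lists, the 10 hypoxia-response genes included, turned negative in both comparisons with myoblasts where they were not already, as did the median of all genes. None of the list genes given here as past 2-fold changed direction in the 8 or 9 alternatives that gave it a value. The genes that stayed past 2-fold in all of them were Hmox1, Vegfb and Slc2a3 in BIO cellulates against myoblasts, Pdk4 and P4hb in neurogenic against BIO cellulates, and Fam162a, Hk2, P4ha3, Pdk4, P4hb, Slc2a3 and Vegfb in neurogenic cellulates against myoblasts.

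**Figure D5:**
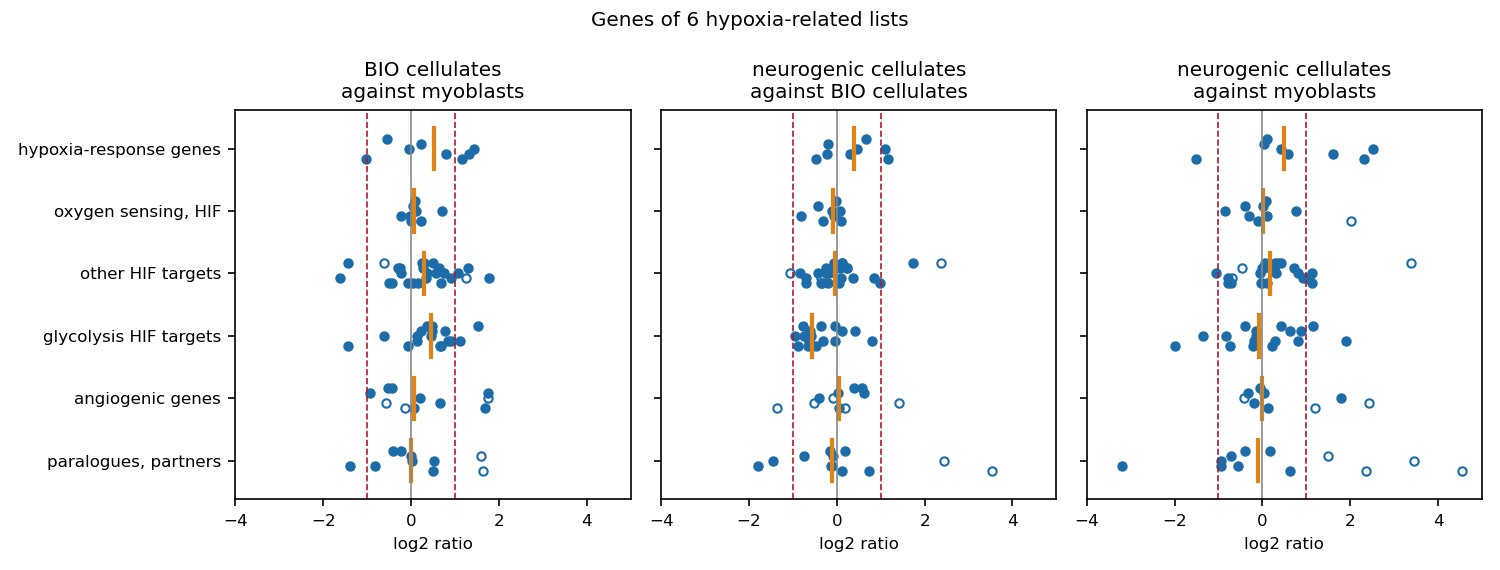
Log2 ratios of the genes in 6 hypoxia-related lists, 1 dot per gene, in BIO cellulates against myoblasts, neurogenic against BIO cellulates, and neurogenic cellulates against myoblasts. Open dots are bounds from genes measured on 1 of the 2 arrays, orange bars are the median of each list and dashed lines mark 2-fold. The glycolysis genes have their median at 0.46 in the first panel and at -0.57 in the second, while the hypoxia-response genes have theirs at 0.51 and 0.39.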

How the data were processed

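The 3 one-colour Cy3 arrays of 200 ng total RNA were used. Per the file headers, the deposited intensity values are Agilent Feature Extraction 10.7.3.1 processed signals of array design 014868, already background-subtracted by the scanner software. The deposited log2 table holds the authors' processed values, which equal these signals up to 1 constant per array (0.23 in neurogenic cellulates, 0.67 in BIO cellulates and 0.00 in myoblasts), and served as an alternative. Here log2 intensity minus each array's 75th percentile was used, with control and outlier spots left out and spots of a probe averaged. Through its transcript accession, matched to RefSeq genes of GRCm38.p6, 26918 of 41174 probes were named. A gene was read on its brightest probe. Where 1 of 2 arrays was not well above background, the ratio is a bound (one that gave no difference counted as 0 in medians and is not plotted), and where probes disagreed on detection, no ratio was taken. A difference of 2-fold was used as the size rule, with no test, since each group has 1 array. The 10 genes and all lists were chosen with earlier results of these data known. All 10 were named, and of the lists the oxygen sensing genes and, per comparison, up to 6 of the largest differences of at least 2-fold, with the 3 nearest genes in pattern, of which 1 is not reported here. Ratios of genes measured on both arrays were tested on simulated copies of the myoblast array, with changes placed in bright genes only, as many up as down. Changes in dim genes, bounds and the choice of scaling were not tested in this way. Python 3.11.15, pandas 2.3.3 and limma 3.58.1 were used. Alternatives were array-median, measured-probe, quantile and spike-in scaling, normexp correction with offset 50, the deposited values, the median over probes, and other filters on dim probes.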

Additional observations from a re-analysis of the deposited data

How the results depend on the processing

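A ratio or median counts as moved here when it differs from the reported one by more than the repeat-spot interval of its comparison (log2 0.46 for BIO cellulates against myoblasts, 0.38 for neurogenic against BIO cellulates, 0.42 for neurogenic cellulates against myoblasts), and a count when it differs by more than 1.5 times. By that measure 10 of the counts and medians under alternatives moved and 71 did not, and 17 single-gene ratios moved and 199 did not. Changes within it can still cross 2-fold, as given in the report. The median over the genes ran between -0.20 and 0.89, between 0.19 and 0.75 and between -0.23 and 1.10 in the same order of comparisons. In BIO cellulates against myoblasts, scaling to the array median gave a median of -0.20 with 0 genes higher and 2 lower, normexp correction left 1 higher, and both the 75th percentile over measured probes and quantile normalisation left 0 lower. Of all genes, 2.88% were higher and 28.8% lower there with the array median, and 2.35% higher with normexp. The shares lower were 4.33% with the percentile over measured probes and 6.30% with quantile normalisation. In neurogenic against BIO cellulates, the median over probes left 1 higher, since the probes of Vegfa differ in size, where 4.30% of all genes were. In neurogenic cellulates against myoblasts, scaling to the array median gave a median of -0.23, and reading dim probes as measured gave a median of 1.10 with 5 higher, Egln3 and Ndrg1 being added at background. With dim probes read so, 27.9% of all genes were higher there. Scaling to the array median moved the median of all genes along, and the cause of the other moves was not tested. No paired analysis was possible because each group has 1 array, and no array could be left out or blocked by slide for the same reason. Signal over background limits the dim genes, Egln3 and Ndrg1 most.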
